A study of Mus musculus with 2 samples.

Results

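The genes described here carry the annotation type TEC, the GENCODE class for loci whose existence as genes still awaits an experimental test, and were picked on their measured abundance: a TEC gene was included when its expected count, averaged over the libraries, was at least 100. This rule selected 194 of the 3219 TEC genes, out of 55536 annotated genes. Total RNA was sequenced from left cerebral cortex of B6CASTF1/J females (the F1 hybrid of the strains C57BL/6J and CAST/EiJ) aged 18 to 20 months. There was 1 group of 2 libraries, replicate 1 and replicate 2, each made from 300 ng of total RNA with ERCC spike-in RNA added, and every animal had the same genotype, sex and age class and no treatment. The labels number the libraries as biological replicates 1 and 2, each with technical replicate number 1. They also list separate biosamples under a single donor entry, so the spread between the libraries may be technical or between animals. With 1 library on each side, a ratio between replicates compares those libraries only, and no p-value was computed.

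The class marks places where expressed sequence tags, usually unspliced and with signs of a polyadenylated end, pointed to a possible gene that had not been tested by experiment. In brain, whose neurons transcribe some of the longest genes of the genome, many such tags lie inside introns, the stretches that splicing removes from the primary transcript. A read from such a place can come from a separate transcript with its own start and end, or from the host gene's RNA before its intron is removed.

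Annotated genes took 32357983 counts in replicate 1 and 24798683 in replicate 2, so 3 counts, the limit that a count of 0 allows, correspond to 0.0927 and 0.121 CPM (counts scaled to library size). The cortical label was met by Slc17a7 (excitatory neurons), at 557.8 and 546.91 TPM (transcript abundance scaled for gene length and library size), and by Gad1 (inhibitory neurons), at 188.63 and 159.32 TPM. Gabra6 of cerebellar granule cells and Oxt of the hypothalamus were at 0 in both libraries. As log2 ratios of replicate 2 to replicate 1 on scaled counts, the cell markers checked ran from -0.27 to 0.07 in excitatory neurons (4 genes), -0.34 to -0.24 in inhibitory neurons (3), -0.34 to -0.09 in oligodendrocytes (3) and -0.37 to -0.25 in microglia (3). The 3 astrocyte genes differed among themselves, with Slc1a2 at 0.05, Aldoc at -0.27 and Gfap at -0.90, and Ttr of the choroid plexus was at 6.69 and 2.84 TPM. Whether differences in cell makeup bear on the ratios below was not tested.

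The 3′ ends of annotated transcripts are shown for examples of TEC genes outside other genes on their strand and of TEC genes in introns, the placement that the results below turn on. The last 30 bases of each single-exon transcript are given 5′ to 3′, from the GENCODE M21 transcripts on mm10, with the polyadenylation hexamer AATAAA in capitals. The examples were chosen for holding or lacking the hexamer, so how common it is must be read from the shares given after them. The first 6, which hold it, were among the 10 members with the highest TPM and lay outside same-strand genes; of the same 10, Gm49338 and Gm37899 also lay outside same-strand genes and held neither AATAAA nor ATTAAA:
Gm44509 (chr7:55973519-55973548, minus strand): atgttttaaAATAAAgtaacatttctagct
Gm47155 (chr13:93412928-93412957, plus strand): cttgggaattgtcaAATAAAcaataacttt
Gm21955 (chr4:42719864-42719893, plus strand): ttcttacaacAATAAAgtgtgtatagtaag
9330121K16Rik (chr8:55077105-55077134, plus strand): tttacatgggtAATAAAaagtatattcacc
Gm49593 (chr15:79480227-79480256, minus strand): aacttaacAATAAAtgacacaattagtgtg
Particl (chr6:72440581-72440610, plus strand): aaaaaaagggaAATAAAactccatacagac
The other 6 lay in introns of protein-coding genes and had neither AATAAA nor ATTAAA in their last 50 bases:
Gm42732 (in Ociad1, chr5:73312531-73312560, plus strand): aagaagctctgttgtctcaaaaaacaatgc
Gm43843 (in Cttnbp2, chr6:18429659-18429688, minus strand): tgttttccccaaagcctacaactgtgattt
Gm37895 (in Adgrb3, chr1:25775757-25775786, minus strand): gaacaggttagaactaccatttcccagggc
Gm45176 (in Dlg2, chr7:91135907-91135936, plus strand): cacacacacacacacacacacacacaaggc
Gm42770 (in Kcnip4, chr5:49124587-49124616, minus strand): aaatagaagctttccttaatttataaaacc
2900027M19Rik (in Fam155a, chr8:9685829-9685858, minus strand): taacaaccacctctgatttgagacagcccc

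Over all members, AATAAA stood in the last 50 bases of the transcript strand in 46 of 194 (23.7%), using the longest transcript of each gene. ATTAAA, counted only where AATAAA was absent, stood there in 16 (8.25%). The share with AATAAA was 13.6% for the 125 members in introns of protein-coding genes and 42.0% for the other 69. The same window held AATAAA in 21.6% of TEC genes under the threshold. It did in 31.4% of all 5854 lincRNA genes and in 56.4% of all 21951 protein-coding genes, whatever their counts. A match is a description of these letters and does not show that a transcript ends there. The start of the transcript was described by its CpG content, the count of CG pairs relative to that expected from the C and G content of the first 300 bases. Its median was 0.19 in the members, 0.20 in TEC genes under the threshold, 0.42 in lincRNA genes and 0.75 in protein-coding genes, the latter pair at a mean count of 100 or more. CpG-rich starts, with a ratio above 0.6, were found in 4 of 13 members on the opposite strand of a gene and in 3 of 125 in introns of protein-coding genes.

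Most members were faint. Their mean TPM ran from 0.82 to 29.8, with a median of 2.68, and 168 of 194 were below 5 TPM while 7 reached 10. In replicate 1 the median TPM was 1.86 and in replicate 2 it was 3.52; 178 members reached 1 TPM in replicate 1 and 194 in replicate 2. The members together took 0.105% of the gene counts of replicate 1 (95% exact binomial interval 0.104% to 0.106%) and 0.179% of those of replicate 2 (0.177% to 0.181%), a mean of 0.142% ± 0.0524 (SD, n = 2). These intervals cover counting error only. The difference between the libraries was far wider than either interval. The members made up 6.03% of TEC genes and 46.3% of the counts on them, and 919 TEC genes had no count in either library.

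The count threshold fell in a dense part of the distribution. Just inside it were Gm43953 with 63 and 137 counts in replicates 1 and 2, Gm47801 with 86 and 114, and 4632418H02Rik with 72 and 130. Just outside were Gm44559 with 76 and 122 counts, Gm47483 with 79 and 119, and A330074H02Rik with 82 and 116, each with a mean of 99. The values on either side differed by less than the gap between the libraries.

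Nearly all members were unspliced models: 192 of 194 had 1 exon and 191 had 1 transcript. Their lengths ran from 940 to 30942 bases, with a median of 3156.5. The shortest were Gm42433 in Map4, which encodes a microtubule-associated protein, with 940 bases, Gm42732 with 1197 and Gm37407 in R3hdm1 with 1316. The longest were 9330162G02Rik with 30942 bases, Gm37899 with 8717 and Gm43379 with 7726. The GC content had a median of 40.6%, against 49.7% in protein-coding genes at 100 counts or more and 40.9% in TEC genes with 10 to under 100 counts. Members were most frequent on chromosomes 5 (29), 7 (26) and 1 (25), and were absent from chromosome 11, which held 15 of all TEC genes against 501 on chromosome 5.

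By position, 151 members (77.8%) overlapped a gene of another type on the same strand, 149 of them lying wholly within its bounds, in 105 distinct host genes. Introns of protein-coding genes held 125 members (64.4%), noncoding genes (pseudogenes included) 20, exons of protein-coding genes 6, the opposite strand of a gene 13, and the space between genes 30. Among TEC genes under the threshold, 44.7% lay in introns of protein-coding genes, 31.1% between genes and 17.4% on an opposite strand. Because the rule used the count, the higher intronic share of the members is given as a description.

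**Figure D1:**
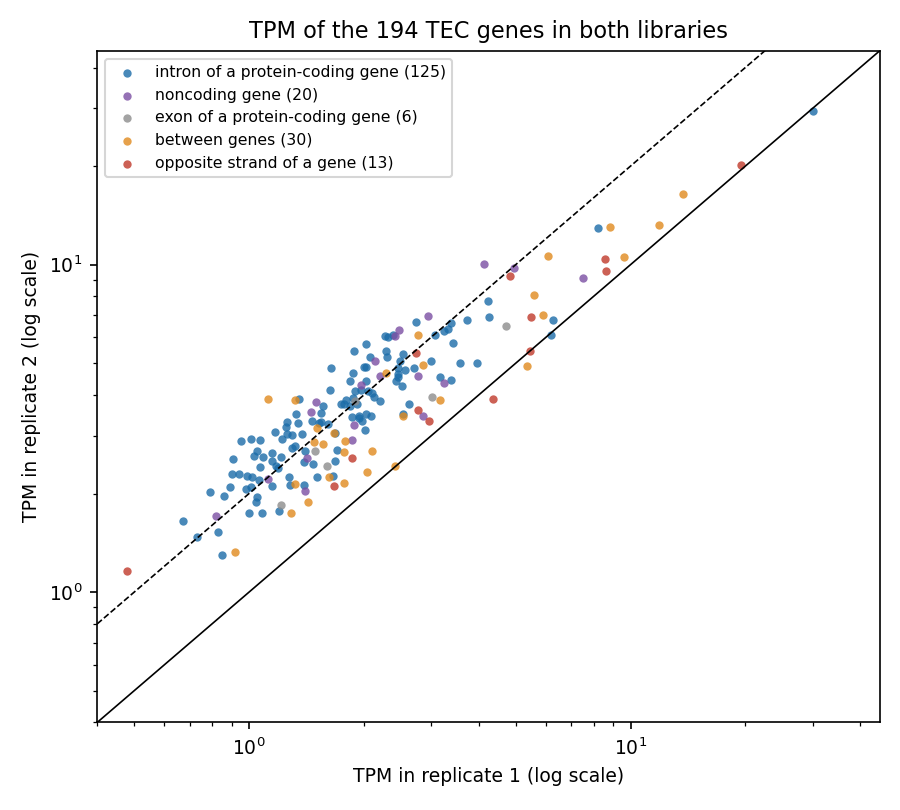
TPM of each of the 194 members in replicate 1 (horizontal, log scale) and replicate 2 (vertical, log scale), coloured by position. The solid line marks equal TPM and the dashed line a level 2-fold higher in replicate 2; intronic members crowd around the dashed line and the members with the highest TPM lie near the solid one.

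The member with the highest TPM was Gm42732 (chr5:73311364-73312560), in an intron of Ociad1, which encodes a membrane protein of endosomes and mitochondria. Gm42732 stood at 30.05 TPM in replicate 1 and 29.48 in replicate 2, a mean of 29.8 ± 0.403 (SD, n = 2), beside 212.26 and 195.09 TPM for Ociad1 itself. Its level hardly differed between the libraries.

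The next members lay outside same-strand genes. Gm44509 (chr7:55973519-55974842), on the strand opposite the noncoding gene A230056P14Rik, was at 19.44 and 20.13 TPM, and Nipa1, a magnesium transporter gene ending upstream of it on its strand, at 26.37 and 27.68. Gm47155 (chr13:93410783-93412957), which begins 5654 bases beyond the end of the postsynaptic scaffold gene Homer1, was at 13.74 and 16.48 TPM. Homer1 was at 135.99 and 187.16 TPM, so both were higher in replicate 2.

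Gm21955 (chr4:42714926-42719893), between genes, was at 11.89 and 13.25 TPM. Its expected counts, 1305.66 and 1088.16, were fractional, which shows that some of its reads also matched other features, and its level is therefore uncertain. 9330121K16Rik (chr8:55073249-55077134) lies 12378 bases beyond the end of Gpm6a, which encodes a neuronal membrane glycoprotein. It was at 8.84 and 13.03 TPM, a wider gap than that of the other members just named.

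Gm43843 (chr6:18429659-18431245), in an intron of the dendritic spine gene Cttnbp2, was at 8.20 and 12.91 TPM. Gm49593 (chr15:79480227-79482674), which begins 1040 bases beyond Kcnj4, an inward rectifier potassium channel gene, was at 9.59 and 10.52 TPM against 78.72 and 75.66 for Kcnj4. Gm49338 (chr9:45858604-45860682), opposite the beta-secretase gene Bace1, was at 8.56 and 10.39 TPM. Particl (chr6:72439051-72440610), a named RNA transcribed opposite Mat2a, the gene of an S-adenosylmethionine synthetase, was at 8.62 and 9.54 TPM. Apart from Gm43843, each of these differed little between the libraries.

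Gm37899 (chr12:109668869-109677585) lies in the imprinted region that holds the long noncoding genes Meg3, Rian and Mirg. It was at 6.08 and 10.66 TPM. All 3 neighbours were higher in replicate 2 as well: Meg3 at 930.78 and 1532.18 TPM, Rian at 479.04 and 648.32, and Mirg at 50.88 and 75.07. Annotated small RNA lies within its bounds.

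By counts rather than length-scaled levels, the order differed. The member with the highest count was 9330162G02Rik (chr7:59223847-59254788), opposite the ubiquitin ligase gene Ube3a, a gene through which a long antisense RNA is known to run in neurons. It took 1905 and 2793 counts over its 30942 bases, which came to only 2.74 and 5.37 TPM. Ube3a was at 61.83 and 54.09 TPM and Snhg14, the host gene of that antisense RNA, at 698.25 and 976.39. The sources used here do not say whether counting used strand. For 9330162G02Rik and the other 12 members on an opposite strand, among them Gm44509, Gm49338, Particl, Gm9954 and Gm4430, reads of the member and of the gene across from it therefore cannot be told apart.

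The other high counts were those of Gm37899 (1182 and 1550 counts), Gm21955, 9330121K16Rik (755 and 832), Gm42732 (744 and 546), Gm47155 (643 and 577), Gm44509 (537 and 416), Gm49593 (508 and 417) and 2 more. Gm38020, within Ftx, a long noncoding gene of the X-inactivation centre, took 510.73 and 753.97 counts, and Ftx itself was at 14.92 and 24.07 TPM. Gm9954, opposite Nwd2, took 526 and 376 counts, or 5.46 and 5.44 TPM. Replicate 2 was the smaller library, so raw counts understate its levels here, and the TPM values carry the comparison.

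Levels were then compared between the libraries on CPM after TMM scaling, which sets the typical gene to no difference, by the log2 ratio of replicate 2 to replicate 1. The members' median ratio was 0.89, with an interquartile range of 0.56 to 1.14 and extremes of -0.20 and 1.73. Of the 194, 188 (96.9%) were above 0, against 44.8% of all genes at 100 counts or more. Past 2-fold, 75 members (38.7%) were higher in replicate 2 and 0 were lower. Across all 18246 genes averaging at least 10 counts, 4.46% were past 2-fold higher and 1.01% past 2-fold lower. Across the 12569 genes at 100 counts or more, the shares were 0.796% and 0.239%. The central 95% of those 12569 genes spanned -0.42 to 0.62, and 140 members lay above that range and 0 below it. Counting error alone gave a member's ratio a 95% interval reaching a median of 0.35 to either side. The members were picked on the mean of the same counts. At 100 counts, replicate 1 alone would give 142 members and replicate 2 alone 269.

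The high ratio was shared with other TEC genes and with sense-intronic RNA, and not with the general run of genes. The 1151 TEC genes with 10 to under 100 counts had a median of 0.84, with 37.5% past 2-fold higher. The 19 genes of type sense_intronic at 100 counts or more had a median of 0.86. Long noncoding genes at 100 counts or more (299) had a median of 0.18 with 3.68% past 2-fold higher, lincRNA genes (121) 0.17, antisense genes (56) 0.06 and protein-coding genes (11781) -0.03.

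**Figure D2:**
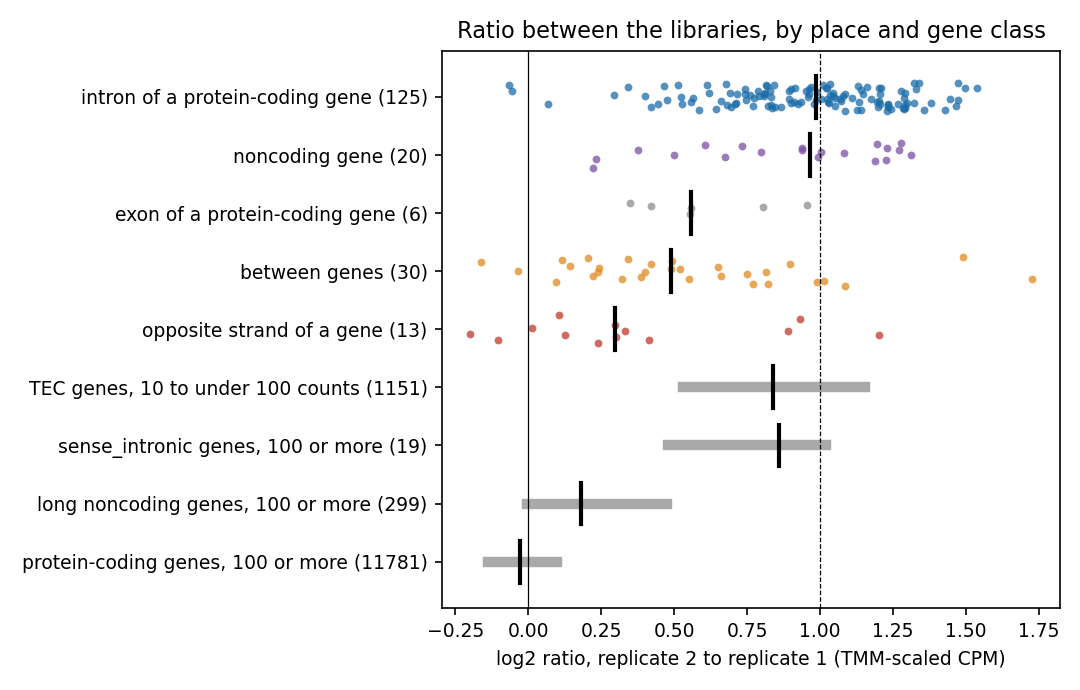
The log2 ratio of replicate 2 to replicate 1 (horizontal) for each member, as a point in 5 rows by position, with a black bar at the median; the 4 lower rows give the median (bar) and interquartile range (grey) of other gene classes. Intronic members centre on 0.99, members between genes on 0.49, and protein-coding genes on -0.03; the dashed line marks 2-fold.

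The ratio differed by position. Members in introns of protein-coding genes had a median ratio of 0.99, with 61 of 125 past 2-fold higher, and those in noncoding genes 0.96, with 9 of 20. Members in exons of protein-coding genes had a median of 0.56 (0 of 6 past 2-fold), those between genes 0.49 (4 of 30) and those on an opposite strand 0.30 (1 of 13). TEC genes with 10 to under 100 counts had medians of 0.92 in introns of protein-coding genes, 0.43 between genes and 0.30 on an opposite strand. Among the 43 members off any same-strand gene, the 15 that began within 5 kb downstream of a protein-coding gene had a median of 0.32 and 0 past 2-fold, and the other 28 had 0.53 and 5.

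The polyadenylation hexamer and position went together. Over all members the median ratio was 0.65 with AATAAA, 0.78 with ATTAAA and 0.95 with neither. Within introns of protein-coding genes the order was not kept: the 17 members with AATAAA had a median of 1.05 and the 102 with neither had 0.97. Between genes the medians were 0.46 with AATAAA (16 members), 0.10 with ATTAAA (4) and 0.79 with neither (10). On an opposite strand they were 0.30 with AATAAA (7) and 0.24 with neither (3), and in noncoding genes 0.94 (5) and 0.96 (12). GC content, length and mean count moved little with the ratio across the 194 members, which share their libraries. Spearman's rho was -0.16, 0.17 and -0.14 for them, and -0.29 for the CpG content of the first 300 bases.

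The members least different between the libraries, 22 with a ratio below 0.3, were 9 between genes, 7 on an opposite strand, 4 in introns of protein-coding genes and 2 in noncoding genes. Their median mean TPM was 6.17, against 2.56 for the rest, and 7 of the 10 members with the highest TPM were among them. The lowest ratios belonged to Gm4430, opposite the phosphate transporter gene Slc20a1, with 181 and 121 counts and a ratio of -0.20 (95% counting interval -0.55 to 0.14), and Gm10699, between genes, with 245 and 168 counts and -0.16 (-0.46 to 0.12). Gm9954 (-0.10), Gm42732 (-0.07) and Gm45640 in the chromatin remodeller gene Chd9 (-0.05, from 250 and 185 counts) followed. All 5 counting intervals included 0.

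At the other end stood Gm43174, between genes, with 59 and 154 counts, or 1.12 and 3.89 TPM, and a ratio of 1.73 (95% counting interval 1.32 to 2.22). Gm48870 in Dip2c took 84 and 191 counts (ratio 1.54), Gm43046 in Kcnip4 87 and 192 (1.497), Gm38073 between genes 106 and 232 (1.49), and Gm49069 in Fgf14, which encodes a partner of sodium channels, 119 and 257 (1.47). Their raw counts were higher in replicate 2 even though that library was the smaller one. Gm43174, Gm48870 and Gm43046 were under 100 counts in replicate 1, so they passed the threshold only through replicate 2. Their ratios are therefore not free of the rule that picked them. The same limit holds for other members, since only 136 of the 194 had 100 or more counts in each library.

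The hosts of the intronic members were long genes. The 125 members lay in 83 protein-coding hosts with a median length of 205 kb, from 17.8 to 2245 kb, against a median of 27.6 kb for protein-coding genes at 100 counts or more. Hosts over 100 kb numbered 54 (65.1%), against 17.2% of those protein-coding genes. The introns were long too, with a median of 86.6 kb, and 70 members lay in introns over 50 kb. The midpoint of a member lay at a median of 35.1% of the way from the host's 5′ end, and 83 of 125 lay nearer the 5′ than the 3′ end.

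The 83 protein-coding hosts themselves hardly differed between the libraries. Their median level was 62.8 TPM in replicate 1 and 61.8 in replicate 2. The median host ratio was 0.04, with an interquartile range of -0.04 to 0.13 and extremes of -0.23 and 0.48, and 0 hosts passed 2-fold. In 123 of 125 cases the member's ratio exceeded that of its host, by a median of 0.91. The exceptions were Gm45640 in Chd9 and Gm47075 in Homer1, the latter singled out after its values were seen. Across the 125 pairs, which share the libraries and in part the hosts, the member's ratio and the host's ratio had Pearson's r of 0.04 and Spearman's rho of -0.00. Noncoding hosts are not in these values. Their own ratios ran from -0.07 (Gm6740) to 0.94 (Lncpint).

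**Figure D3:**
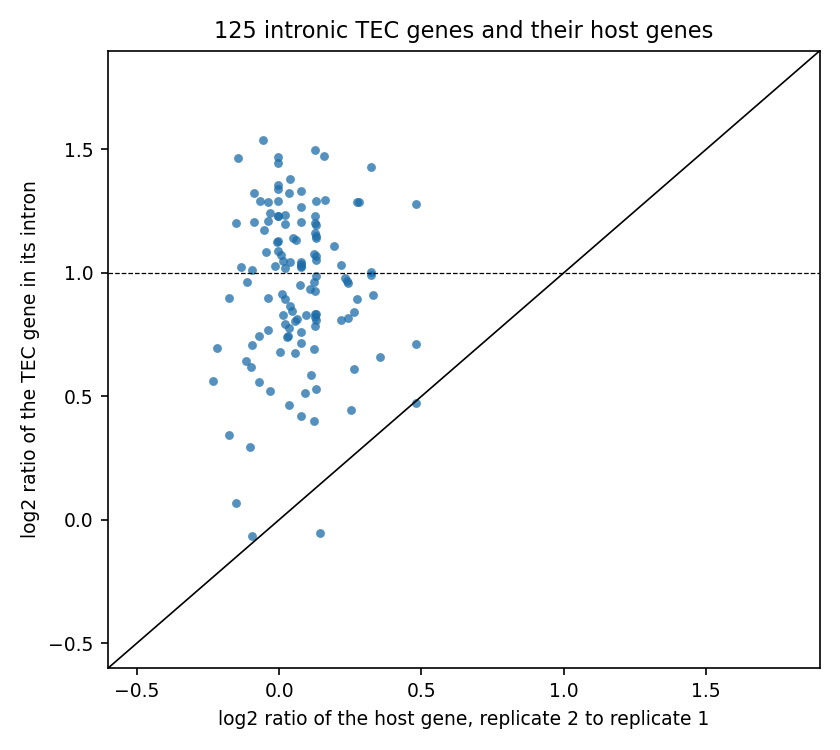
The log2 ratio of replicate 2 to replicate 1 for 125 intronic members (vertical) against that of the host gene (horizontal); the solid line marks equal ratios and the dashed line a 2-fold ratio of the member. Hosts lie between -0.23 and 0.48, and 123 of the 125 points lie above the line of equality.

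An intronic member's TPM was a small part of its host's, with a median of 2.60% in replicate 1 and 4.85% in replicate 2 and maxima of 18.5% and 33.5%. The ratio was larger in longer hosts. The 59 members in hosts over 500 kb had a median of 1.09 and 40 past 2-fold, and the 66 in shorter hosts 0.83 and 21. Across the 125, log2 host length and the ratio had Pearson's r of 0.40 and Spearman's rho of 0.36, with members of the same host not independent. In the 13 hosts with at least 2 intronic members (55 members), the pooled SD of the ratio within a host was 0.20. Over all 125 intronic members the SD was 0.32. The sets differ and the SD over the 55 alone was not computed. These values therefore do not show whether members of the same host were alike.

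Adgrb3, which encodes an adhesion receptor of synapses, held 9 members in 762 kb. The gene was at 39.36 and 43.43 TPM, with a ratio of 0.13, while its members had ratios of 0.81 to 1.29 and 6 passed 2-fold. Near the 5′ end, Gm37602 (midpoint 24.0 kb from the start) was at 2.03 and 4.41 TPM, Gm36952 (30.6 kb) at 2.48 and 5.08, and Gm37895 (51.7 kb) at 2.43 and 4.40. In the middle, Gm37077 (72.5 kb) was at 1.56 and 3.70 TPM, Gm38198 (92.5 kb) at 1.53 and 3.29, Gm37628 (141 kb) at 1.86 and 3.42, and Gm38260 (155 kb) at 1.46 and 3.33. Farthest on, Gm37880 (466 kb) was at 1.25 and 3.19 TPM and Gm38286 (482 kb) at 1.15 and 2.66. Levels were thus lower farther along the gene in both libraries, with Spearman's rho between distance and TPM of -0.90 in replicate 1 and -0.93 in replicate 2 over 9 members. The first 7 of these lie in the same 266 kb intron.

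Dlg2, which encodes the postsynaptic scaffold PSD-93, held 9 members in 1973 kb. Dlg2 was at 109.12 and 123.7 TPM with a ratio of 0.08, and its members had ratios of 0.72 to 1.33, with 7 past 2-fold. Gm45176 (657 kb from the start) was at 2.53 and 5.35 TPM, Gm45177 (664 kb) at 2.51 and 4.27, Gm45182 (683 kb) at 1.87 and 4.68, and Gm44678 (865 kb) at 1.26 and 3.04, all in 1 intron of 359 kb. In a later intron of 223 kb, Gm44679 (1044 kb) was at 1.96 and 4.14 TPM, Gm44675 (1089 kb) at 1.80 and 3.86, Gm44676 (1134 kb) at 1.26 and 3.31, and Gm44677 (1152 kb) at 1.30 and 2.75. From Gm44678 to Gm44679, across these introns, the level was higher again in both libraries. B230206I08Rik, at 1933 kb, was at 1.94 and 3.39 TPM. Spearman's rho between distance and TPM was -0.53 and -0.75 over the 9.

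Kcnip4, which encodes an auxiliary protein of A-type potassium channels, held 8 members in 1135 kb. The host was at 22.87 and 25.62 TPM with a ratio of 0.13, and its members had ratios of 0.79 to 1.497, with 4 past 2-fold. 2900064K03Rik, only 7.53 kb from the start, was the highest at 4.24 and 7.73 TPM. Gm42772 (115 kb) was at 2.46 and 4.53 TPM, Gm42771 (304 kb) at 2.29 and 5.46, Gm42770 (398 kb) at 2.46 and 4.82, and Gm42768 (440 kb) at 2.71 and 4.83. Gm43046 (455 kb) was at 1.64 and 4.84 TPM, Gm43317 (518 kb) at 2.00 and 4.87, and Gm10048 (598 kb), the lowest, at 1.30 and 3.02. Every one of the 8 was higher in replicate 2, and rho between distance and TPM was -0.79 and -0.40.

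Fam155a, which encodes a subunit of the sodium leak channel, came next with 7 members, whose ratios ran from 1.09 to 1.47, all past 2-fold. The host was at 44.81 and 48.31 TPM with a ratio of -0.00. Its members ran from 1.02 to 2.74 TPM in replicate 1 and from 2.25 to 6.67 in replicate 2. Here the ranges of the libraries overlapped only through the member farthest from the start, at 398 kb, which had the lowest TPM in both.

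**Figure D4:**
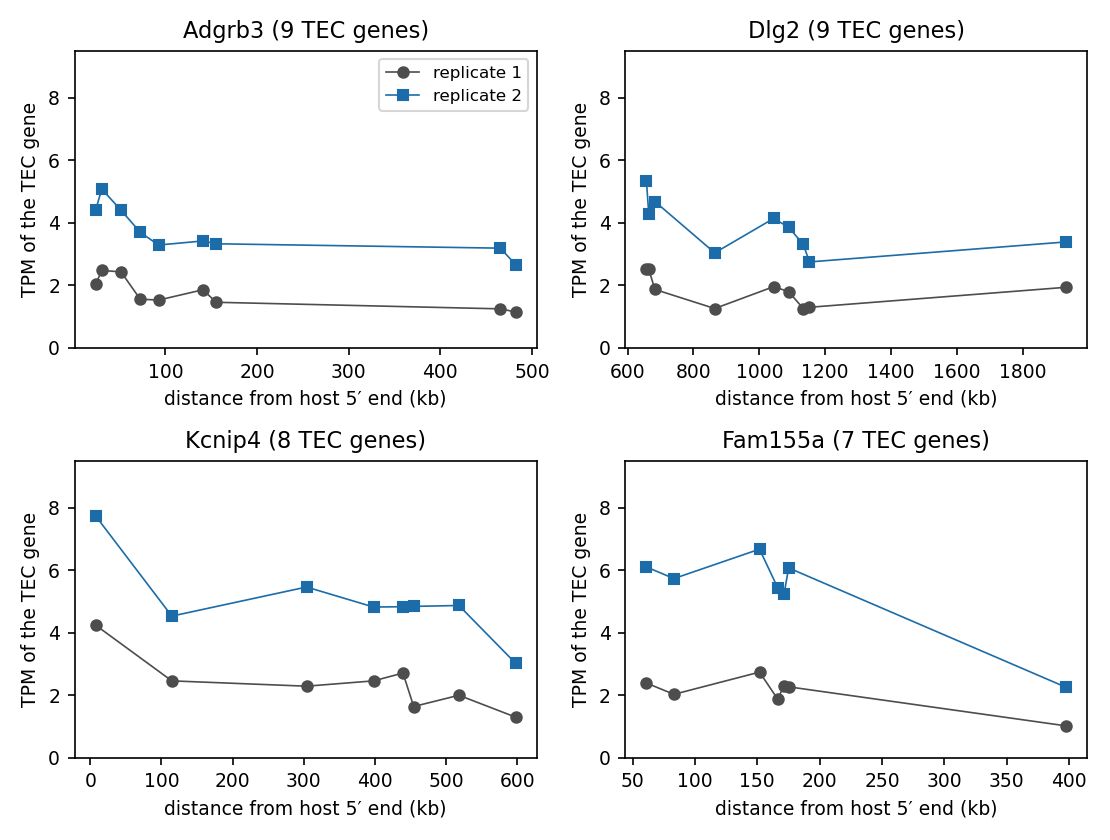
TPM of the intronic members of Adgrb3, Dlg2, Kcnip4 and Fam155a (vertical) against the distance of the member's midpoint from the host's 5′ end in kb (horizontal), with replicate 1 as grey circles and replicate 2 as blue squares. In each panel every member is higher in replicate 2, and the members nearest the 5′ end of Adgrb3 and Kcnip4 stand above those farthest from it.

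Retained-intron transcripts and a list of nuclear long noncoding genes were described between the libraries as well. Transcripts annotated as retained introns took 3.46% of the alignment-free counts in replicate 1 and 4.56% in replicate 2. In the 2699 genes averaging at least 100 such counts, their median ratio was 0.41, with 84.6% above 0, against -0.08 for the whole-gene counts of 11759 protein-coding genes in the same tables. All 8 nuclear long noncoding genes looked at had a ratio above 0: Xist 0.34, Rian 0.38, Snhg14 0.48, Malat1 0.52, Neat1 0.56, Miat 0.62, Meg3 0.80 and Kcnq1ot1 0.83. Malat1, the most abundant of them, was at 4611.31 and 6516.01 TPM. A ratio above 0 was common in their class. It was found in 73.9% of the 299 long noncoding genes at 100 counts or more, and in 44.8% of all genes at that level. The part that the content of unspliced or nuclear RNA has in the members' ratios was not tested. The gene tables come from alignments to annotated transcripts, so reads from the rest of an intron are not in them, and a separate transcript at an intronic TEC gene and unspliced RNA of its host cannot be told apart.

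The levels were compared with a second, alignment-free quantification of the same reads. Its estimated counts had a median of 1.10 times the gene-table counts, 1.09 in replicate 1 and 1.10 in replicate 2, and 150 of 194 members were within 20%. By TPM the median ratio of the tables was higher, at 1.56 and 1.57. The alignment-free tables gave 186 members with a ratio above 0 between the libraries and a median of 0.83. The median over all genes kept was -0.04 in those tables, and the share of all genes above 0 was not computed there.

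Some members were quantified very differently. Gm42427, between genes, took 168.01 and 164.48 counts in the gene tables and 2093.51 and 1698.30 in the alignment-free tables, 11.4 times as many on average. Gm49069 (3.36 times), 2900027M19Rik in Fam155a (2.63), Gm44950 between genes (2.23) and Gm47493 in the ryanodine receptor gene Ryr2 (2.17) followed. At the low end were Gm6740, which spans an annotated pseudogene of the same symbol, with 0.57 times, Gm42433 with 0.70, Gm45263 in Gpm6a with 0.90, Gm49338 with 0.91 and Gm47155 with 0.92. The levels of Gm42427 and Gm6740 therefore depend on the quantification, as do their ratios between the libraries: 0.34 in the gene tables and 0.00 in the alignment-free tables for Gm42427, and 0.22 and -0.55 for Gm6740.

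**Figure D5:**
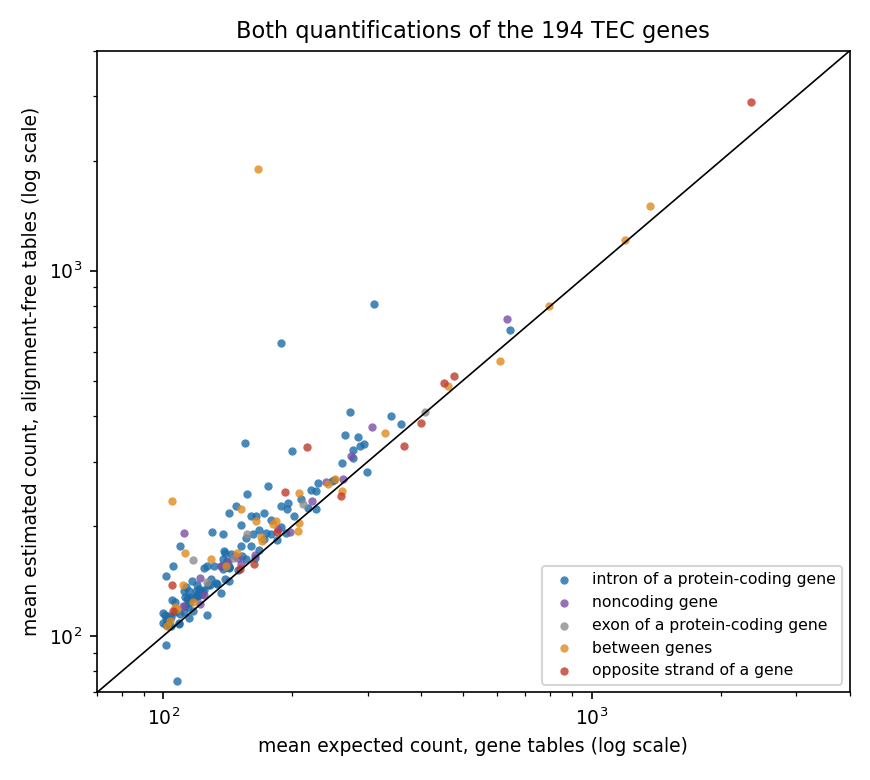
Mean estimated count of each of the 194 members in the alignment-free tables (vertical, log scale) against the mean expected count in the gene tables (horizontal, log scale), coloured by position, with a line of equality. Most members lie just above the line, and Gm42427 stands 11.4 times above its gene-table count.

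Reads shared with other features touched few members. Expected counts were fractional, by more than 0.01 of a read, in 13 of 194, among them Gm21955, Gm38020, Gm42427, Gm47493 and Gm6740. Those 13 had a median ratio of 0.55 and the other 181 of 0.91.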

How the data were processed

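The study measured total RNA in 2 libraries of 1 group. Per the deposited file headers and notes, the authors' gene tables hold expected counts (estimated, with shared reads split) and TPM, made from alignments to mm10 with GENCODE vM21 transcripts. A second, alignment-free set of the authors' tables gives estimated counts and TPM for each transcript. The deposited interval bounds of TPM and posterior SD of counts (signal columns) were not used for any result. Not given in the sources used here: aligner, quantifier, versions, strand setting.

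A gene was TEC if all its transcripts, or the gene itself, had that type; genes with a mean expected count of at least 100 were kept. Members and lists were chosen with earlier results of these data known. Expected counts were rounded, genes with a mean of 10 or more kept, and log2 CPM computed with TMM scaling and a prior count of 2 (edgeR 4.0.16, R 4.3.3). DESeq2 1.42.0 size factors, total counts and spike-in totals were alternatives. The ratio calculation was checked on simulated counts, where it recovered the folds put in. With 1 library on each side, no significance test was made on the real data. Positions and sequences came from GENCODE vM21; hosts were same-strand genes of other types, small RNA left out. Named members were the 10 highest by TPM and by count, the 5 largest ratios each way, the 5 highest and 5 lowest ratios of the quantifications, the 3 on either side of the threshold, the 3 longest and 3 shortest, and all members of the 3 hosts with most members; those of the next host, Fam155a, were summarised. Python 3.11.15, pandas 2.3.3, scipy 1.17.1 and matplotlib 3.10.9 were used. Gene counts were 32357983 and 24798683 per library.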

Additional observations from a re-analysis of the deposited data

How the results depend on the processing

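The number of members moved with the threshold: 479 at a mean of 50 counts, 49 at 200 and 337 with alignment-free counts. Using replicate 2 alone gave 269 members and replicate 1 alone 142; 100 or more in each library gave 136. Counting genes with any TEC transcript, an alternative added after seeing the data, gave 208. The median TPM of 2.68 became 4.51 in the alignment-free tables, 4.44 when rescaled without short RNA and spike-ins, 4.49 for members at 200 counts, and 1.86 to 3.52 in single libraries. The share of counts was 0.105% to 0.179% in single libraries. The median ratio of 0.89 stayed between 0.83 and 0.90 under DESeq2 size factors, total counts, other prior counts, alignment-free counts and no low-count filter. Spike-in totals gave 1.05, with a median over all genes of 0.16. Members past 2-fold numbered 63 to 102 under these scalings, priors and tables, against 75 as reported, and 143 passed 1.5-fold. The 102 came with spike-in totals and the 63 with alignment-free counts. Over all genes kept, 6.38% and 6.83% were past 2-fold higher under those settings, against 4.46% as reported. The share of all genes past 1.5-fold was not computed. Overlap with an exon left 8 members inside another gene. A fractional part over 1% of the count left 0 members with shared reads, against 13. Every member had at least 59 counts in each library, so that cutoff exceeded any possible distance to a whole count. The 0 was thus fixed in advance and says nothing about how many reads were shared. By TPM the alignment-free tables were 1.57 times the gene tables. Of 348 ratios of named members under alternatives, 6 moved by at least as much as their counting interval reaches to either side. Ratios near 0 could change sign with smaller moves. With spike-in totals, Gm42732 went to 0.09, Gm9954 to 0.06 and Gm45640 to 0.10, while Gm4430 and Gm10699 stayed below 0. No paired analysis was possible because there is 1 group. Depth limits single members: counting error reaches a median of 0.35 to either side of a member's ratio.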
